A study of Mus musculus with 212 samples.

Results

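The genes that carry, make, bind and read retinoids were followed in mouse skin fibroblasts with and without the clock gene Bmal1. The 9 genes are Rbp4, Stra6, Aldh1a1, Aldh1a2, Aldh1a3, Aldh1a7, Crabp1, Crabp2 and Rarb, out of 47631 genes in the table, and they were taken by matching gene IDs to these symbols. They were selected on their FPKM levels in the 2 genotypes and at the 3 temperatures, which were already known, so differences in those levels are given below as descriptions with no test. Transcripts were measured by RNA-seq of poly(A) RNA in FPKM, which scales fragments to transcript length and library depth.

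The Bmal1KO cells were labelled Bmal1-/- and the control cells WT, both of strain C57BL/6. All cultures in both genotypes were grown to confluency, given 100 nM dexamethasone for 15 min to set a common start, and then moved to HEPES-buffered medium and constant darkness. Harvesting began 48 h after dexamethasone. Each genotype had an AM and a PM course of 17 time points each, every 3 h up to CT48, and courses at 27, 32 and 37 °C of 24 time points each, every 2 h up to CT46. These 10 courses hold 1 library per time point, and the labels give 3 wells per time point and genotype. No label explains AM or PM, or tells whether wells were pooled, how many cell preparations were used, or which part of Bmal1 was deleted. The p-values below therefore rest on how libraries within a course vary, not on how preparations vary.

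Of 212 libraries, 210 were used. The pair labelled CT14 at 27 °C went against its labels. Cdkn1a, a cell cycle inhibitor gene, was 97.8 to 150.4 FPKM in the other Bmal1KO libraries and 1.08 to 7.12 FPKM in the other WT libraries, but 3.87 FPKM in the library labelled Bmal1KO CT14 and 109 FPKM in the library labelled WT CT14. Bmal1 itself (Arntl) was read at 4.52 to 9.26 FPKM in Bmal1KO and 2.81 to 10.2 FPKM in WT, so its level does not check the labels. Median depth, estimated from the values, was 23.7 M reads (lowest 9.97 M, highest 32.3 M). All 10 fibroblast markers had a median of at least 1 FPKM in both genotypes, and their summed level was 10953 to 23956 FPKM in Bmal1KO and 8043 to 19421 FPKM in WT. The summed level of 6 melanocyte markers was 1.66 to 6.68 FPKM in Bmal1KO and 5.16 to 32.3 FPKM in WT, with medians of 0.179 FPKM in Bmal1KO and 7.45 FPKM in WT for Mlana and of 2.28 FPKM in Bmal1KO and 11.4 FPKM in WT for Mitf. Pmel went the other way, with 1.25 FPKM in Bmal1KO and 0.673 FPKM in WT, while Dct, Tyr and Sox10 had a median of 0 in both. The summed level of 5 macrophage markers was 1.17 to 41.5 FPKM in Bmal1KO and 4.09 to 41.4 FPKM in WT, with Adgre1 and Ptprc at a median of 0 in both. Median summed levels of the other lists were 2.36 FPKM in Bmal1KO and 2.81 FPKM in WT for keratinocytes, and 1.87 FPKM in Bmal1KO and 2.54 FPKM in WT for endothelium. They were 29.01 FPKM in Bmal1KO and 19.997 FPKM in WT for adipocytes, 14.7 FPKM in Bmal1KO and 10.7 FPKM in WT for cartilage and bone, and 0.198 FPKM in Bmal1KO and 0.106 FPKM in WT for skeletal muscle. Among the keratinocyte markers Krt5, Krt14, Krt1 and Epcam had a median of 0 in both, while Cdh1 was 0.956 FPKM in Bmal1KO and 0.0311 FPKM in WT, Trp63 was 0.197 FPKM in Bmal1KO and 1.62 FPKM in WT, and Krt10 was 0.715 FPKM in Bmal1KO and 1.25 FPKM in WT. The part of these markers in the genotype differences below was not tested. In bulk RNA, fewer cells of a type and less RNA per cell cannot be told apart.

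Retinol travels in blood bound to the carrier protein RBP4 and enters many cells through the membrane receptor STRA6. Inside, alcohol and retinol dehydrogenases oxidise it to retinal, and the retinaldehyde dehydrogenases of the ALDH1A family oxidise retinal to retinoic acid. Retinoic acid is held and handed on by the small binding proteins CRABP1 and CRABP2 and acts through nuclear receptors such as RARβ, and CYP26 enzymes break it down. In skin it is best known for its effects on epidermal and fibroblast growth and differentiation.

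In every course Crabp1 and Crabp2 were at most 1.64 FPKM in Bmal1KO libraries and at 21.5 FPKM or more in every WT library, while Rbp4 ran the other way. Aldh1a1 was at least 44.5 FPKM in every library of both genotypes. Aldh1a7 was far higher in Bmal1KO than in WT in AM, PM and at 37 °C, but close to WT at 27 °C. Rarb was low in Bmal1KO throughout, and in WT it was higher the colder the cells were kept. Of the 9 genes, 7 had a median of at least 1 FPKM in some course, and Aldh1a2 and Aldh1a3 stayed below that in all 10.

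**Figure D1:**
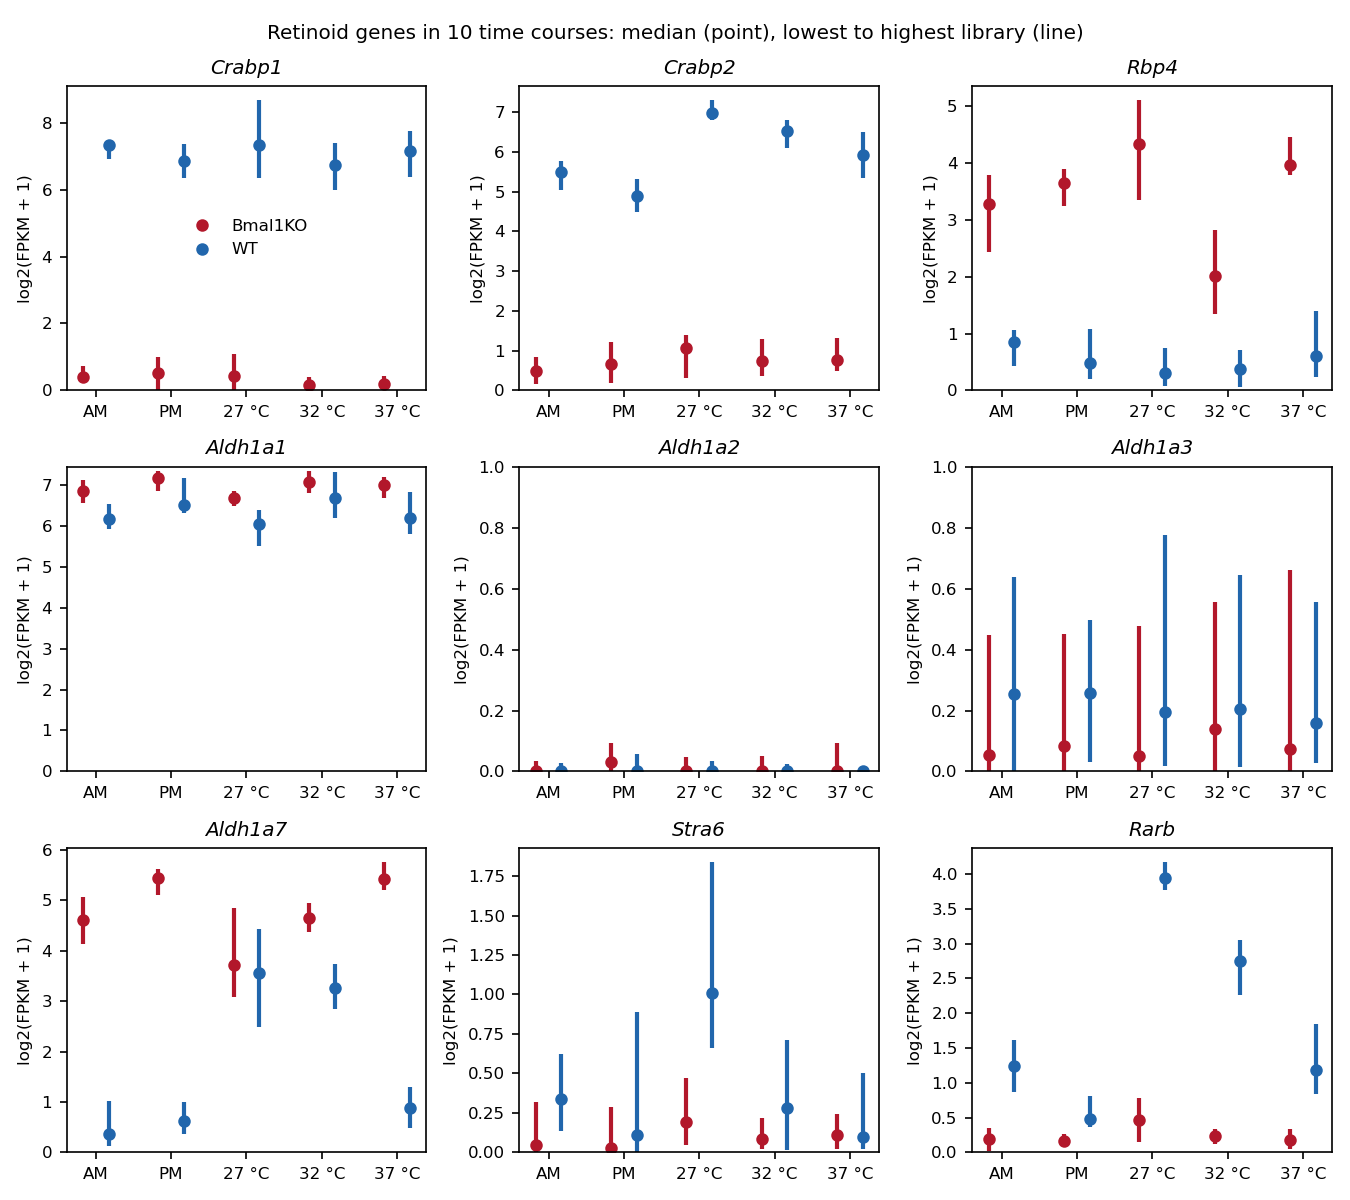
Level of each gene as log2(FPKM + 1) in the 10 courses, with Bmal1KO in red left of WT in blue; points are medians and lines run from the lowest to the highest library of a course (17 libraries in AM and PM, 23 at 27 °C, 24 at 32 and 37 °C). The Bmal1KO and WT lines of Crabp1, Crabp2 and Rbp4 are apart in all 5 conditions, and those of Aldh1a7 meet only at 27 °C.

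Counted on the log2(FPKM + 1) scale, 2 of the 9 genes were at least 2-fold higher in Bmal1KO than in WT and 3 lower in AM, at 32 °C and at 37 °C. In PM the counts were 2 higher and 2 lower, and at 27 °C 1 higher and 3 lower. Over the 13164 genes averaging 1 FPKM or more, 14.5% differed by at least 2-fold in AM, 15.3% in PM, 13.3% at 27 °C, 14.4% at 32 °C and 14% at 37 °C. Here and in the temperature counts of the 9 genes, all genes means these 13164. Aldh1a2, Aldh1a3 and Stra6 are not among them, so the counts of 9 and the shares cover unlike sets. The 9 genes were chosen with this difference in view, so the counts carry no weight as a test. The 5 genes past 2-fold in AM, at 32 °C and at 37 °C, and 4 of them in PM and at 27 °C, also had no overlap between the genotypes' libraries (13%, 13.4%, 12.9%, 14.1% and 11.9% of all genes did both).

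Rbp4 (ENSMUSG00000024990, GRCm38 chromosome 19, 38116629 to 38125281, minus strand) encodes the serum carrier of retinol. At 37 °C its lowest, median and highest levels were 12.9, 14.7 and 21.1 FPKM in Bmal1KO, against 0.181, 0.513 and 1.65 FPKM in WT. At 27 °C they were 9.24, 19.2 and 33.5 FPKM in Bmal1KO, against 0.0539, 0.236 and 0.679 FPKM in WT. The level in Bmal1KO was not ordered by temperature, because the lowest course was the one at 32 °C. There the lowest, median and highest were 1.55, 3.02 and 6.06 FPKM in Bmal1KO, against 0.0443, 0.293 and 0.639 FPKM in WT. The 32 °C libraries of Bmal1KO lay below all Bmal1KO libraries at 27 and at 37 °C. In Bmal1KO the mean log2(FPKM + 1) at 32 °C was lower than at 37 °C by a difference of -1.97 ± 0.09 (SE), and the 27 °C course differed from the 37 °C course by 0.17 ± 0.12, with overlapping ranges. That last difference was -0.08 when libraries were rescaled by median-of-ratios size factors. Median levels in AM and PM were 8.73 and 11.6 FPKM in Bmal1KO, against 0.811 and 0.404 FPKM in WT. The difference between Bmal1KO and WT ran from 1.71 ± 0.09 at 32 °C to 3.83 ± 0.12 at 27 °C, and no course had overlapping ranges. With WT under 1 FPKM these sizes depend on the pseudocount, and on the log2(FPKM + 0.1) scale they were 3.24 at 32 °C and 5.59 at 27 °C.

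Stra6 (ENSMUSG00000032327, chromosome 9, 58063788 to 58153996, plus strand) encodes the membrane receptor that takes up retinol from RBP4. It was low everywhere but in one course. At 27 °C its lowest, median and highest levels were 0.0352, 0.144 and 0.388 FPKM in Bmal1KO, against 0.585, 1.02 and 2.57 FPKM in WT. In WT the 27 °C libraries all lay above those at 37 °C, where the lowest, median and highest were 0.015, 0.0689 and 0.419 FPKM. The other 7 courses had medians between 0.019 and 0.264 FPKM. Because the level is close to the pseudocount, the size of this difference depends on it. WT at 27 °C differed from WT at 37 °C by 1.00 on the log2(FPKM + 1) scale and by 2.73 on the log2(FPKM + 0.1) scale.

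Aldh1a1 (ENSMUSG00000053279, chromosome 19, 20492715 to 20643465, plus strand) encodes a retinaldehyde dehydrogenase and had the highest level of the ALDH1A genes in every course, per transcript length. Its lowest, median and highest levels at 37 °C were 101, 128 and 145 FPKM in Bmal1KO, against 54.9, 71.4 and 112 FPKM in WT. At 32 °C they were 109.9, 134 and 160.1 FPKM in Bmal1KO, against 72.2, 102 and 157 FPKM in WT. These ranges overlapped, as they did in PM, but in AM and at 27 °C the genotypes were apart. At 27 °C the lowest, median and highest were 87.9, 101 and 115 FPKM in Bmal1KO, against 44.5, 65.1 and 82.9 FPKM in WT. In AM they were 93.2, 114 and 138 FPKM in Bmal1KO, against 60.0, 70.3 and 92.2 FPKM in WT. The difference between Bmal1KO and WT was 0.33 ± 0.07 at 32 °C and up to 0.74 ± 0.06 at 37 °C, so it stayed under 2-fold in all 5 conditions.

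Aldh1a2 (ENSMUSG00000013584, chromosome 9, 71215789 to 71296243, plus strand), the main retinoic acid producing enzyme of the early mouse embryo, was listed at 0 in 178 of 210 libraries. Its highest value was 0.0676 FPKM. Aldh1a3 (ENSMUSG00000015134, chromosome 7, 66390890 to 66427517, minus strand), the third retinaldehyde dehydrogenase of the family, had course medians between 0.0368 and 0.196 FPKM and reached 0.712 FPKM at most. Its ranges overlapped between the genotypes in all 5 conditions.

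Aldh1a7 (ENSMUSG00000024747, chromosome 19, 20692953 to 20727562, minus strand) is a close paralogue of Aldh1a1 that lies next to it in the mouse genome. In the 37 °C courses the lowest, median and highest levels were 35.7, 42.2 and 53.1 FPKM in Bmal1KO, against 0.392, 0.839 and 1.45 FPKM in WT. At 32 °C they were 19.6, 24.1 and 29.9 FPKM in Bmal1KO, against 6.15, 8.58 and 12.3 FPKM in WT. At 27 °C they were 7.49, 12.1 and 27.9 FPKM in Bmal1KO, against 4.60, 10.9 and 20.6 FPKM in WT. The genotypes thus overlapped at 27 °C and at no other temperature. Cooling went with opposite changes in the genotypes. In Bmal1KO the 27 °C course was below the 37 °C course by a difference of -1.63 ± 0.12 and the 32 °C course by -0.80 ± 0.05. In WT the 27 °C course was above the 37 °C course by 2.55 ± 0.14 and the 32 °C course by 2.38 ± 0.06. None of these 4 pairs of courses overlapped. In AM and PM the medians were 23.3 and 42.7 FPKM in Bmal1KO, against 0.284 and 0.544 FPKM in WT.

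The level of Aldh1a7 relative to Aldh1a1 differed between courses. Aldh1a7 FPKM as a percentage of Aldh1a1 FPKM in the same library had a median of 35.5% in Bmal1KO at 37 °C, against 1.03% in WT at 37 °C. At 27 °C the medians were 12.5% in Bmal1KO and 15.7% in WT. The coding sequences of these genes are 91.6% identical over 1506 aligned bases. No stretch of 101 bases, the read length, of the Aldh1a7 transcript was identical to one of Aldh1a1, but 164 of 1966 such stretches (8.34%) were within 2 mismatches. Reads from those stretches could have been counted for the wrong gene, depending on alignment settings that are not given. The lowest ratio was a median of 0.426% in WT AM.

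The 250 bases before the annotated starts of these paralogues are shown because they share a stretch while the levels part. In RefSeq (GRCm38.p6) 7 of the 9 genes had such windows, 12 in all, and Crabp2 and Aldh1a3 had none. Capitals mark the longest run identical between the windows of Aldh1a7 (chr19:20727557-20727806, minus strand) and of one Aldh1a1 start (chr19:20601718-20601967, plus strand). It is 65 bases long and lies 94 to 30 bases before either start.
Aldh1a7: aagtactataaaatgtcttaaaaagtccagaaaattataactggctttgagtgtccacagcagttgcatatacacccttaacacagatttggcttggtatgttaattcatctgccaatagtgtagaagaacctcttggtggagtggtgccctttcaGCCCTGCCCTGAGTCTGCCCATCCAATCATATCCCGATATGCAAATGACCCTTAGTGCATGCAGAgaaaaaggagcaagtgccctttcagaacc
Aldh1a1: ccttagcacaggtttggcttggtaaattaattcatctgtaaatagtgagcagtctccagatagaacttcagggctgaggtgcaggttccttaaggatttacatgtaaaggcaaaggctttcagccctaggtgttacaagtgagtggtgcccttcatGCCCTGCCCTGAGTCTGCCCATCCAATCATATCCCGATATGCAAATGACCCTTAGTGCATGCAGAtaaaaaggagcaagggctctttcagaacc
The aligned ends of these windows were identical at 106 of 111 columns (95.5%). The window of the other Aldh1a1 start gave a best alignment of 18 columns.

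Crabp1 (ENSMUSG00000032291, chromosome 9, 54764748 to 54773110, plus strand) encodes the cytosolic protein that binds retinoic acid and has been linked to its breakdown. At 37 °C its lowest, median and highest levels were 0, 0.144 and 0.337 FPKM in Bmal1KO, against 81.4, 143 and 213 FPKM in WT. At 27 °C they were 0, 0.345 and 1.14 FPKM in Bmal1KO, against 81.1, 161 and 405 FPKM in WT. Every WT library was thus far above every Bmal1KO library, and in WT the 27 °C course spanned the widest range. The medians at 32 °C were 0.117 FPKM in Bmal1KO and 106 FPKM in WT. In AM they were 0.323 FPKM in Bmal1KO and 159 FPKM in WT, and in PM 0.433 FPKM in Bmal1KO and 115 FPKM in WT. The difference between Bmal1KO and WT was -6.33 ± 0.09 in PM and down to -6.94 ± 0.10 at 37 °C. With Bmal1KO near 0 the pseudocount sets these sizes, and on the log2(FPKM + 0.1) scale they were -7.87 in PM and -9.39 at 37 °C. Neighbouring WT courses in the order of medians overlapped, so their ranges did not separate by temperature. These ranges include the drift over time given below. In WT the 27 °C course differed from the 32 °C course by 0.66 ± 0.17 and from the 37 °C course by 0.32 ± 0.17. The 32 °C course differed from the 37 °C course by -0.35 ± 0.13. At CT0 the WT levels were 405, 167 and 204 FPKM at 27, 32 and 37 °C, and at CT46 they were 81.1, 62.9 and 88.4 FPKM.

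Crabp2 (ENSMUSG00000004885, chromosome 3, 87948666 to 87953376, plus strand) encodes the binding protein that carries retinoic acid to its nuclear receptors. Its lowest, median and highest levels at 37 °C were 0.402, 0.694 and 1.5 FPKM in Bmal1KO, against 40, 59.9 and 89.7 FPKM in WT. At 27 °C they were 0.243, 1.09 and 1.64 FPKM in Bmal1KO, against 110.02, 126 and 157 FPKM in WT. The medians at 32 °C were 0.66 FPKM in Bmal1KO and 91.6 FPKM in WT. In WT the order was 27, 32 and 37 °C from high to low, and the 27 °C libraries did not overlap those at 37 °C. WT at 27 °C was above WT at 37 °C by 1.07 ± 0.08, and by 0.81 after median-of-ratios rescaling, which takes it under 2-fold. Over the genes above 1 FPKM in all libraries the median difference between 27 and 37 °C was 0.25 in either genotype. That between 32 and 37 °C was 0.14 in Bmal1KO and 0.15 in WT. Most of these genes thus had higher FPKM at the colder temperatures. Whether this comes from expression or from the scaling of libraries was not tested. The shift is part of each rise given here and runs against each fall. Rescaling took the difference of Aldh1a7 in Bmal1KO between 27 and 37 °C from -1.63 to -1.88. Crabp2 medians in AM and PM were 0.395 and 0.577 FPKM in Bmal1KO, against 44.1 and 28.8 FPKM in WT. The coding sequences of Crabp1 and Crabp2 are 70.8% identical, and the closest 101-base stretches differed at 21 bases.

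Rarb (ENSMUSG00000017491, chromosome 14, 16430839 to 16819156, minus strand) encodes the nuclear receptor RARβ and is itself a known direct target of retinoic acid. At 27 °C its lowest, median and highest levels were 0.105, 0.378 and 0.727 FPKM in Bmal1KO, against 12.6, 14.4 and 16.9 FPKM in WT. At 32 °C they were 0.0926, 0.176 and 0.26 FPKM in Bmal1KO, against 3.81, 5.73 and 7.29 FPKM in WT. At 37 °C they were 0.033, 0.131 and 0.259 FPKM in Bmal1KO, against 0.787, 1.28 and 2.57 FPKM in WT. In WT the 3 temperatures formed 3 separate ranges, stepping down with warmth. WT at 27 °C was above WT at 37 °C by 2.72 ± 0.06, WT at 32 °C was above WT at 37 °C by 1.5 ± 0.07, and WT at 27 °C was above WT at 32 °C by 1.22 ± 0.05. In Bmal1KO the 27 °C course was above the 37 °C course by 0.28 ± 0.03 with overlapping ranges. With Bmal1KO under 1 FPKM this size depends on the pseudocount. On the log2(FPKM + 0.1) scale it was 1.01 in Bmal1KO, against 3.36 in WT, and the ratio of medians in Bmal1KO was 2.89. Median levels in AM and PM were 0.143 and 0.116 FPKM in Bmal1KO, against 1.36 and 0.394 FPKM in WT, and the WT courses of AM and PM did not overlap.

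The bases before the Rarb start (RefSeq, GRCm38.p6, chr14:16575477-16575726, minus strand) are shown because the known retinoic acid response element of this gene is a pair of half-sites there. Capitals mark a pair of direct half-sites 5 bases apart (DR5), found 53 to 37 bases before the start.
Rarb: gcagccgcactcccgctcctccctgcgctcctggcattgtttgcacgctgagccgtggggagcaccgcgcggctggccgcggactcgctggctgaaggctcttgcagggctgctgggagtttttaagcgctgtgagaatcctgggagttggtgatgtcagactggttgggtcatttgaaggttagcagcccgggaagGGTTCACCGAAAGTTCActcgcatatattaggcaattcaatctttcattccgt
Half-sites searched on both strands were AGGTCA or GGGTCA, the variant AGTTCA and the variant GGTTCA, with spacers of 5 (DR5) or 2 bases (DR2), along with the E-box CACGTG that CLOCK and BMAL1 bind. The DR5 letters occur in 29 of 32851 windows of the same length (0.0883%), the DR2 letters in 0.174% and the E-box in 6.02%. The half-sites of the known Rarb element are among the letters searched, so its match is no finding. The 12 windows of 7 of the genes held no other match to these motifs.

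Between temperatures, on the log2(FPKM + 1) scale, 1 of the 9 genes was at least 2-fold apart in Bmal1KO at 27 against 37 °C (Aldh1a7, lower), 1 at 32 against 37 °C (Rbp4, lower) and 1 at 27 against 32 °C (Rbp4, higher). Of all genes 11.6%, 2.73% and 3.37% were, and 10.4%, 1.9% and 2.24% also had no overlap. In WT, 3 were higher at 27 than at 37 °C (Crabp2, Aldh1a7 and Rarb), 2 at 32 than at 37 °C (Aldh1a7 and Rarb) and 1 at 27 than at 32 °C (Rarb), where 13.5%, 3.4% and 4.33% of all genes were 2-fold apart in either direction and 12%, 2.15% and 3.03% also had no overlap. Stra6 in WT, at 0.996 between 27 and 37 °C, was just short of 2-fold on this scale, and its ratio of medians was 14.7 in FPKM. On this scale none of the 9 was 2-fold lower at the colder temperature in WT, although the WT medians of Rbp4 were 0.236 FPKM at 27 °C and 0.513 FPKM at 37 °C. These differences were also known when the genes were chosen.

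The comparison of PM with AM played no part in the choice of genes, and it was tested with limma over the 13307 genes that averaged 1 FPKM or more, 5 of the 9 among them. Some of these passed that filter only through the other genotype, so a gene was read only in a genotype where both its AM and PM medians were at least 1 FPKM, a rule set after the values were seen. This left Rbp4, Aldh1a1 and Aldh1a7 in Bmal1KO, and Crabp1, Crabp2 and Aldh1a1 in WT. None of these 3 in either genotype passed an adjusted p under 0.05 together with a 2-fold difference, which 1.16% of all genes did in Bmal1KO and 2.38% in WT. By adjusted p alone all 3 passed in each genotype, but so did 63.6% of all genes in Bmal1KO and 66.9% in WT. The shares of all genes have no such minimum median, so they cover an unlike set. Aldh1a7 in Bmal1KO had the largest difference, with 33.2, 42.7 and 47.9 FPKM as lowest, median and highest in PM, against 16.6, 23.3 and 32.6 FPKM in AM. These ranges were apart, and the difference was 0.83 ± 0.07 (adjusted p = 1.57e-16). Aldh1a1 was higher in PM than in AM in both genotypes, by 0.31 ± 0.04 in Bmal1KO (adjusted p = 1.89e-09) and 0.43 ± 0.04 in WT (adjusted p = 9.19e-14). The difference between these changes, Bmal1KO minus WT, was -0.12 ± 0.06 (limma adjusted p = 0.0816) and missed the threshold, which 58.7% of all genes passed for that difference. The other 4 genes were under 1 FPKM in one of the genotypes, and their differences are not read here. In WT, Crabp1 was lower in PM than in AM by a difference of -0.44 ± 0.06 (adjusted p = 1.31e-08) and Crabp2 by -0.53 ± 0.06 (adjusted p = 8.19e-11). In Bmal1KO, Rbp4 was higher in PM by 0.37 ± 0.09 (adjusted p = 0.00034). Rarb, whose WT medians were 0.394 FPKM in PM and 1.36 FPKM in AM, was below the mean level needed for a test. Each genotype has 1 AM and 1 PM course, so the label and the course cannot be told apart.

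Rhythms of 24 h were read in 36 combinations of gene and course, those with a tested gene and a course median of at least 1 FPKM. That minimum was set after the values were seen. With the moderated F test of limma, 2 of 36 passed an adjusted p under 0.05, against 4.35% over all genes and courses. The shares of all genes have no minimum median in a course, so they and the 36 cover unlike sets. By course, 3.4% of all genes passed in Bmal1KO AM, 3.85% in WT AM, 3.02% in Bmal1KO PM, 5.61% in WT PM, 9.85% in Bmal1KO and 2.15% in WT at 27 °C, 2.06% in Bmal1KO and 0.253% in WT at 32 °C, and 8.46% in Bmal1KO and 4.92% in WT at 37 °C. Rbp4 in Bmal1KO at 27 °C had an amplitude of 0.28 ± 0.06 on the log2 scale from mid-level to peak, with its peak at CT3.8 (adjusted p = 0.00641; 9.85% of genes passed in that course). Rarb in WT at 37 °C had an amplitude of 0.14 ± 0.04 with its peak at CT12.6 (adjusted p = 0.0422; 4.92% passed). Neither passed when each course was fitted with its own spread, an alternative added after seeing the data, with adjusted p = 0.062 for Rbp4 and 0.208 for Rarb. Neither passed with a pseudocount of 0.1 FPKM (adjusted p = 0.385 and 0.141). The amplitudes with that pseudocount were 0.30 for Rbp4 and 0.23 for Rarb. Fitting each course alone gave 0.28 for Rbp4 and 0.14 for Rarb, the same as in the main fit. No Crabp1, Crabp2, Aldh1a1 or Aldh1a7 course passed the test, but with each course fitted alone Aldh1a1 in Bmal1KO at 27 °C did (amplitude 0.12, adjusted p = 0.0204). Over the 36 combinations the fitted amplitudes ran from 0.00698 to 0.28.

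**Figure D2:**
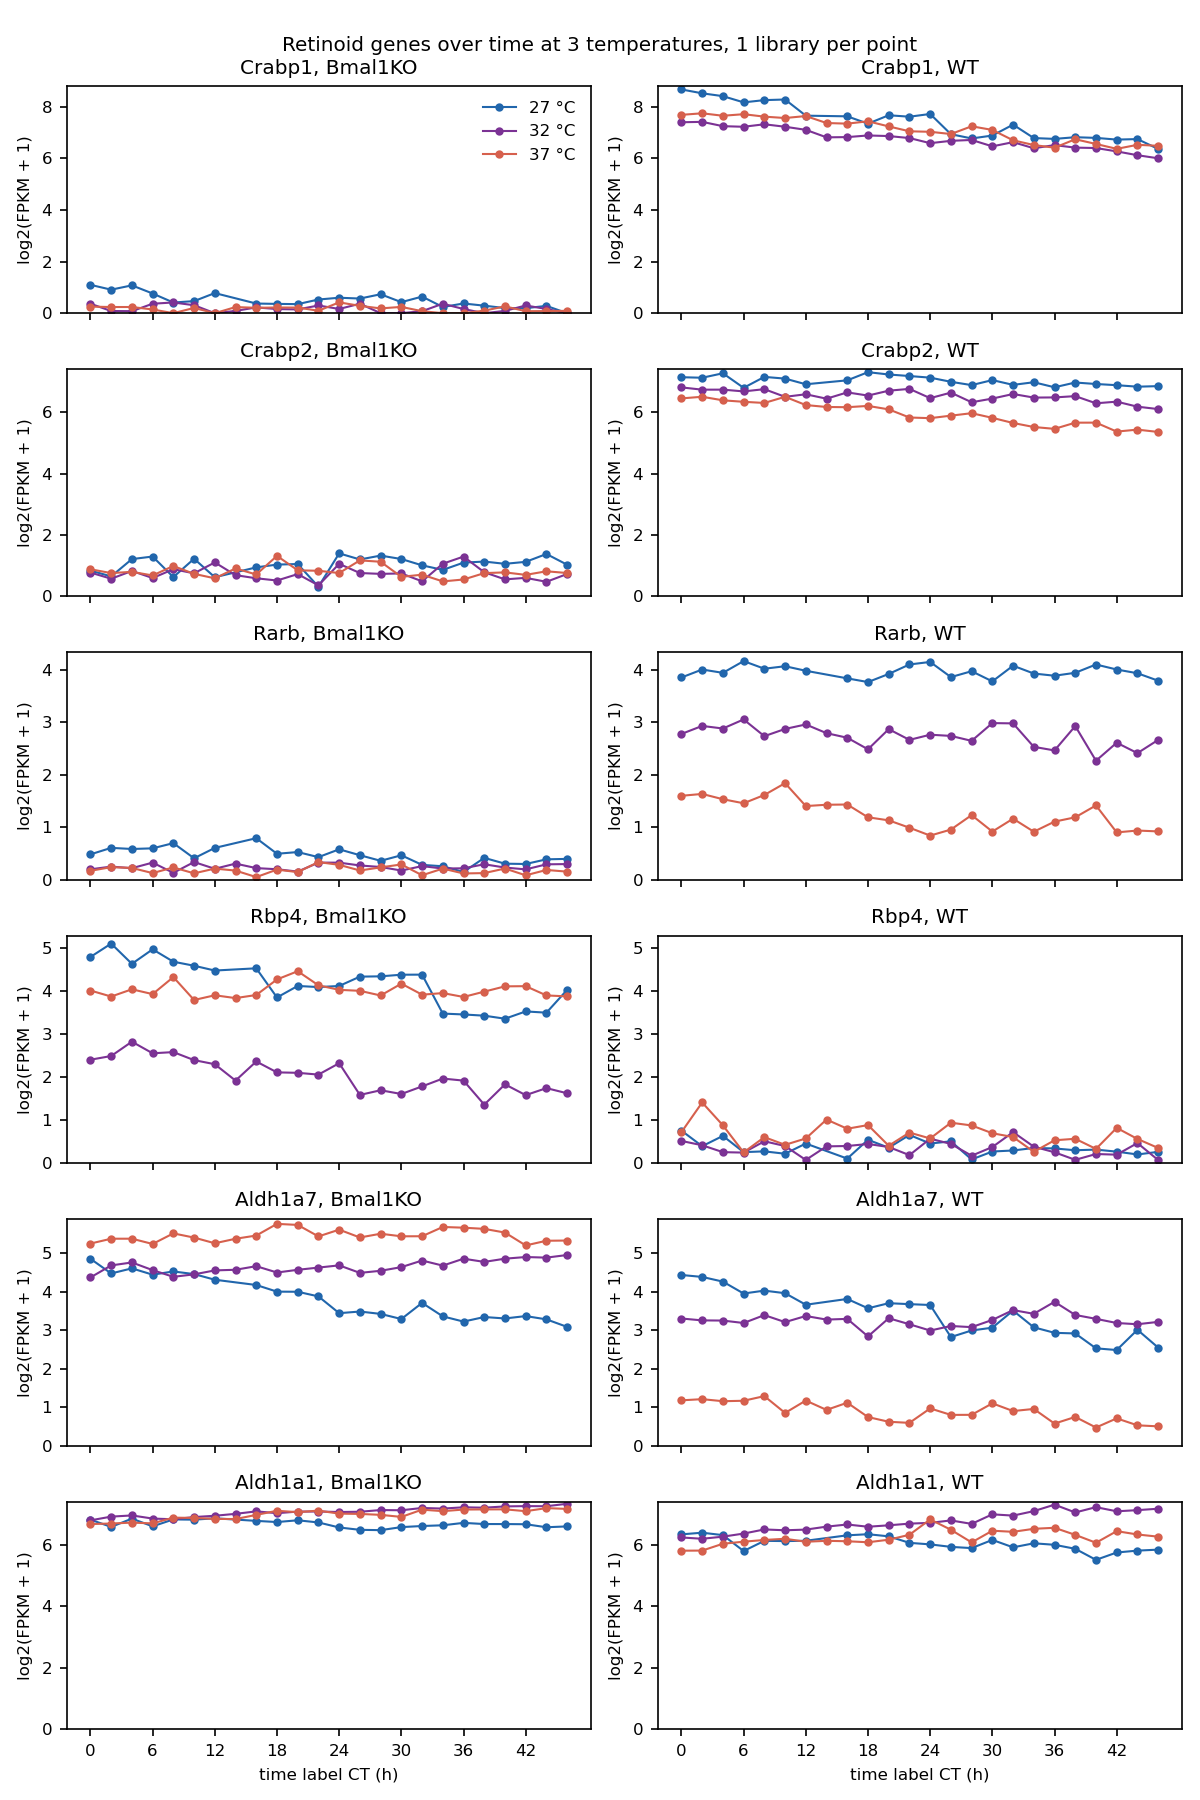
Level of 6 genes as log2(FPKM + 1) against the time label in hours, Bmal1KO on the left and WT on the right, with 1 point per library at 27 °C (blue), 32 °C (purple) and 37 °C (orange); the pair labelled CT14 at 27 °C is left out. WT Crabp1 declines at all 3 temperatures, Aldh1a7 declines at 27 °C in both genotypes, and WT Rarb runs at 3 separate levels.

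Slow drift over the sampling period was far more common than rhythm. A linear trend passed in 27 of the 36 combinations, 10 rising and 17 falling, against 21.2% over all genes and courses. The shares of all genes for trends and for differences of trends have no minimum median. They and the combinations read thus cover unlike sets. By course the share of all genes was 7.52% in Bmal1KO AM, 13.3% in WT AM, 4.88% in Bmal1KO PM, 17.4% in WT PM, 23.2% in Bmal1KO and 36.8% in WT at 27 °C, 15.6% in Bmal1KO and 30.2% in WT at 32 °C, and 37.2% in Bmal1KO and 26.6% in WT at 37 °C. Crabp1 in WT fell by 1.13 ± 0.06 on the log2 scale per 24 h at 27 °C (adjusted p = 2.93e-33), being 405 FPKM at CT0 and 81.1 FPKM at CT46. It also fell at 32 °C (slope -0.66 ± 0.06), at 37 °C (-0.76 ± 0.06) and in PM (-0.32 ± 0.08, adjusted p = 0.00191). The PM trend did not pass with a pseudocount of 0.1 FPKM (adjusted p = 0.275). In WT AM its slope was 0.05 ± 0.08 (adjusted p = 0.743), and the PM slope differed from the AM slope by -0.37 ± 0.11 (adjusted p = 0.0482). It was the 1 of 6 such slope differences between PM and AM to pass, where 2.52% of all genes passed in WT and 0.0902% in Bmal1KO.

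Crabp2 in WT passed with a negative slope in all 5 courses, and the steepest was at 37 °C, at -0.63 ± 0.07 (adjusted p = 1.32e-13). With a pseudocount of 0.1 FPKM the other 4 did not pass (adjusted p = 0.154 in AM, 0.171 in PM, 0.324 at 27 °C and 0.134 at 32 °C), and the 27 °C slope did not pass with no filter (0.0803) or with the linear term alone (0.0619) either. At 27 °C its slope in WT was -0.17 ± 0.07 (adjusted p = 0.0437), which differed from that at 37 °C by 0.46 ± 0.10 (adjusted p = 8.48e-05). Rarb in WT fell at 37 °C with a slope of -0.40 ± 0.05 (adjusted p = 3.87e-11) and at 32 °C with -0.13 ± 0.05 (adjusted p = 0.0303). The 32 °C trend did not pass with a pseudocount of 0.1 FPKM (adjusted p = 0.276), no filter (0.0569), each course fitted alone (0.101) or the CT14 pair kept (0.593). At 27 °C, where it was highest, its slope was -0.02 ± 0.05 (adjusted p = 0.841), and this differed from the 37 °C slope by 0.38 ± 0.07 (adjusted p = 5.59e-06). Crabp1 showed the other order, with the 27 °C slope steeper than the 37 °C slope by a difference of -0.36 ± 0.08 (adjusted p = 0.000303).

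Aldh1a7 at 27 °C fell at the same pace in both genotypes within error, with slopes of -0.94 ± 0.06 in Bmal1KO and -0.95 ± 0.06 in WT. The difference of these slopes was 0.01 ± 0.09 (adjusted p = 0.959). In Bmal1KO it was 27.9 FPKM at CT0 and 7.49 FPKM at CT46. At 37 °C in Bmal1KO its slope was 0.04 ± 0.06, and the 27 °C slope differed from it by -0.98 ± 0.09 (adjusted p = 4.48e-17). At 32 °C in Bmal1KO it rose, with a slope of 0.20 ± 0.06 (adjusted p = 0.0141).

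Rbp4 in Bmal1KO fell at 27 °C (slope -0.60 ± 0.08, adjusted p = 1.11e-09) and at 32 °C (-0.57 ± 0.08, adjusted p = 6.21e-09). At 37 °C its slope was -0.03 ± 0.08, and the differences from it were -0.57 ± 0.11 at 27 °C (adjusted p = 2.44e-05) and -0.54 ± 0.11 at 32 °C (adjusted p = 0.000127). Aldh1a1 passed the trend test in all 10 courses, rising in 8 and falling in the 27 °C courses of both genotypes (slopes -0.15 ± 0.05 in Bmal1KO and -0.30 ± 0.05 in WT). Of these, WT AM did not pass with no filter (adjusted p = 0.0885), the linear term alone (0.0776) or each course fitted alone (0.191), Bmal1KO PM did not pass with median-of-ratios scaling (0.0537) or no filter (0.0679), and Bmal1KO at 27 °C did not pass with the linear term alone (0.0878). Its steepest rise was at 32 °C, with a slope of 0.24 ± 0.05 in Bmal1KO and 0.54 ± 0.05 in WT, and there the genotypes differed by -0.30 ± 0.06 (adjusted p = 0.000263). Of 8 genotype differences of slope that could be read, 2 passed, the other being Crabp2 at 27 °C (0.38 ± 0.10, adjusted p = 0.00362). Its level there was about 1 FPKM in Bmal1KO, where a pseudocount of 1 FPKM compresses slopes, so the genotypes are not on a like scale. The Bmal1KO trend of Crabp2 at 27 °C did not pass with the linear term alone (adjusted p = 0.0784) or each course fitted alone (0.177). Of all genes 7.54% passed for the genotype difference of slope in AM, 6.37% in PM, 15.7% at 27 °C, 12.1% at 32 °C and 23.7% at 37 °C. Of 14 differences from the 37 °C slope, 11 passed, where 30.9% of all genes passed at 27 °C and 23.9% at 32 °C in Bmal1KO, and 32.2% at 27 °C and 11.2% at 32 °C in WT.

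**Figure D3:**
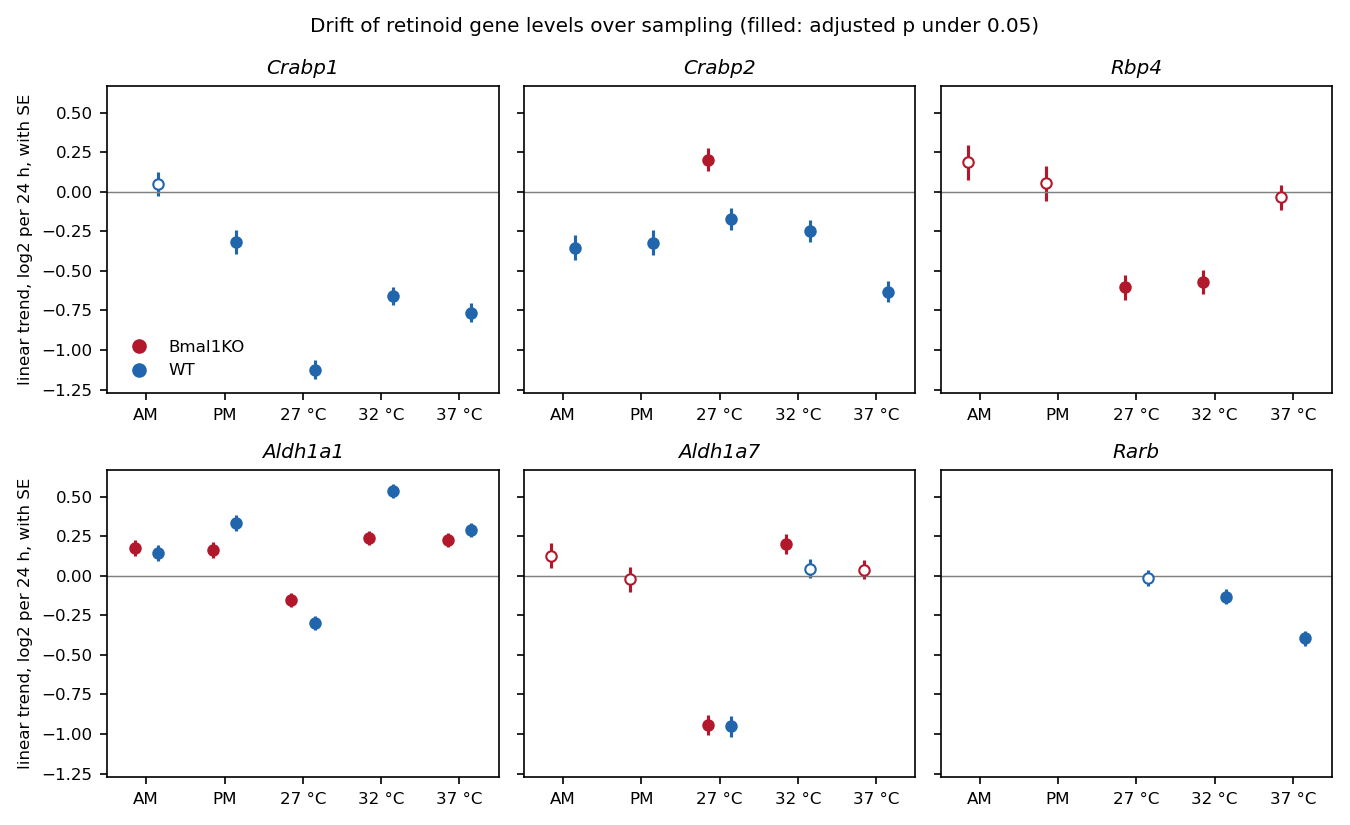
Linear trend in log2 per 24 h with its standard error for each gene and course that could be read, Bmal1KO in red left of WT in blue, filled where the adjusted p was under 0.05. Slopes lie between -1.13 (Crabp1, WT at 27 °C) and 0.54 (Aldh1a1, WT at 32 °C).

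Correlations within a course include any drift that the genes share. Over 24 WT libraries at 37 °C, Pearson's r of log2(FPKM + 1) was 0.98 between Crabp1 and Crabp2. Over 23 WT libraries at 27 °C it was 0.96 between Crabp1 and Aldh1a7 and 0.89 between Crabp1 and Stra6. Over 24 WT libraries at 32 °C it was -0.93 between Crabp1 and Aldh1a1. In Bmal1KO at 32 °C it was -0.80 between Rbp4 and Aldh1a1 and 0.82 between Aldh1a1 and Aldh1a7. At 27 °C, over 23 libraries, Aldh1a1 and Aldh1a7 gave 0.64 in Bmal1KO and 0.75 in WT, while Rbp4 and Aldh1a1, both falling there in Bmal1KO, gave 0.16. In WT AM, where Crabp1 had no trend that passed, r between Crabp1 and Crabp2 was -0.31 over 17 libraries.

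Across all 210 libraries, the genes most like Crabp1 in log2(FPKM + 1) were the homeobox gene Hoxc10 (r = 0.99), Art3 (0.99) and the transcription factor gene Zic1 (0.99), and those most like Crabp2 were Bhlhe22 (0.99), Casp1 (0.99) and Chrdl1 (0.99). All 6 had medians under 0.2 FPKM in Bmal1KO and at least 7.51 FPKM in WT, so the correlation follows the genotype. Rbp4 was most like Cdhr1 (0.95), Cxcl15 (0.93) and the keratin gene Krt19 (0.93). The medians of these genes were 1.96, 6.45 and 29.3 FPKM in Bmal1KO and 0.0466, 0.0165 and 1.54 FPKM in WT. Their correlation with Rbp4 thus follows the genotype too. The genes most like Rarb were Slc22a23 (0.97), Akr1c18 (0.95) and Acat2 (0.94). Those most like Aldh1a7 were Use1 (0.92), the ribosomal protein gene Rps19 (0.91) and Cela1 (0.90). Aldh1a1 had the weakest matches, Adk (0.84), Kif21a (0.83) and Cradd (0.80).

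The rest of the pathway was followed in 60 other genes, listed by role, of which 37 were expressed highly enough to test. In AM and PM together 4 were higher and 3 lower in Bmal1KO, where 7.01% of all genes were higher and 7.53% lower. In the temperature courses 4 were higher and 6 lower, where 5.93% of all genes were higher and 7% lower. The 4 include Cyp2s1, which passed the filter there through its Bmal1KO level, so its call carries no weight as a test. The median difference over the 37 was 0.03 and -0.09, against 0.00 and -0.02 over all genes tested.

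Among genes of retinol uptake and storage, Lpl, which encodes lipoprotein lipase, was higher in Bmal1KO than in WT, by 1.27 ± 0.04 in AM and PM (limma adjusted p = 6.57e-38) and 1.43 ± 0.03 over the temperatures (2.66e-87). Scarb1, a lipoprotein receptor gene, was lower over the temperatures (-1.49 ± 0.02).

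Among the dehydrogenases, Adh7 was lower in Bmal1KO in AM and PM (-1.17 ± 0.04) and over the temperatures (-1.80 ± 0.03). At 37 °C its lowest, median and highest levels were 17.4, 22.3 and 29.9 FPKM in Bmal1KO, against 65.1, 89.2 and 111 FPKM in WT. Adh1 was lower over the temperatures (-1.21 ± 0.02), Dhrs4 was higher there (1.01 ± 0.02), and Rdh5 was higher in AM and PM (1.01 ± 0.05). Rdh10, which encodes the main retinol dehydrogenase of the mouse embryo, differed by less than 2-fold, at -0.84 ± 0.03 and -0.79 ± 0.02.

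Of the breakdown enzymes, Cyp26b1, which clears retinoic acid, was lower in Bmal1KO over the temperatures by a difference of -1.74 ± 0.03 (limma adjusted p = 2.07e-97). At 27 °C its lowest, median and highest levels were 1.20, 1.57 and 2.12 FPKM in Bmal1KO, against 13.1, 18.2 and 29.3 FPKM in WT. In AM it was 3.52 FPKM at the median in Bmal1KO and 4.06 FPKM in WT, with overlapping ranges. Cyp2s1 went the other way, with a median of 9.58 FPKM in Bmal1KO and 0.0703 FPKM in WT at 27 °C. It was higher in Bmal1KO by 3.01 ± 0.02 over the temperatures and 2.25 ± 0.03 in AM and PM. In the temperature courses it passed the filter through its Bmal1KO level, so its call there carries no weight as a test. With WT this low the pseudocount sets the size.

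Of the receptors and carriers, Nr2f1, an orphan nuclear receptor gene, was lower in Bmal1KO in AM and PM (-1.09 ± 0.05) and over the temperatures (-1.28 ± 0.03). The other retinoic acid receptors stayed under 2-fold, with Rara at 0.74 ± 0.02 and 0.67 ± 0.02 and Rarg at 0.20 ± 0.02 in AM and PM. Of the genes known to be induced by retinoic acid, Rarres2 was lower in both comparisons (-1.51 ± 0.05 and -1.58 ± 0.04), and Cyp26b1 stands in this list too.

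Between 27 and 37 °C, 5 of the 37 genes were higher and 5 lower at 27 °C in Bmal1KO, where 7.62% of all genes were higher and 4.05% lower. In WT 4 were higher and 6 lower, where 8.4% were higher and 5.21% lower. Between 32 and 37 °C, 0 were higher and 3 lower in Bmal1KO (1.77% and 0.944% of all genes), and 2 were higher and 3 lower in WT (1.93% and 1.37%). In WT Cyp26b1 was higher at 27 °C by 2.46 ± 0.04 and at 32 °C by 1.02 ± 0.04, with medians of 18.2, 6.24 and 2.54 FPKM at 27, 32 and 37 °C. Its order over temperature in WT was that of Rarb, and the 27 and 37 °C ranges did not overlap. Other genes of the retinoic acid induced list did not share this order. Of its 7 tested genes, 1 was called higher in WT at 27 °C (Cyp26b1) and 2 lower (Rarres2 and Tgm2). The median difference over that list was -0.31, against 0.21 over all genes tested. In Bmal1KO Cyp26b1 medians were 1.57, 1.44 and 1.12 FPKM at these temperatures.

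Fabp5, which encodes a fatty acid binding protein that can carry retinoic acid to PPARδ, was higher in WT at 27 °C by 1.79 ± 0.05 and at 32 °C by 1.24 ± 0.04. Nr2f1 was higher at 27 °C in both genotypes, by 1.86 ± 0.05 in Bmal1KO and 1.74 ± 0.05 in WT. Pnpla2, a lipase gene, was higher at 27 °C in both, by 1.72 in Bmal1KO and 1.85 in WT. Higher at 27 °C in Bmal1KO were also Scarb1 (1.26), Rdh10 (1.00) and Dhrs3 (1.11), which encodes a retinal reductase. Among the dehydrogenases, Dhrs9 was lower at 27 °C by -2.11 in Bmal1KO and -2.28 in WT, Rdh5 by -1.06 in Bmal1KO and -1.44 in WT, and Adh1 by -1.04 in Bmal1KO and -1.39 in WT. Tgm2, which encodes a transglutaminase, was lower in WT by -1.93. Lpl was lower at 27 °C in both, by -2.39 ± 0.04 in Bmal1KO and -3.55 ± 0.04 in WT, and so was Rarres2, by -1.71 ± 0.07 in Bmal1KO and -3.92 ± 0.07 in WT. The median of Rarres2 at 27 °C was 0.0285 FPKM in Bmal1KO and 0.332 FPKM in WT, against 2.86 FPKM and 20.9 FPKM at 37 °C. With both 27 °C medians under 1 FPKM, the sizes of its differences depend on the pseudocount and do not rank the genotypes.

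**Figure D4:**
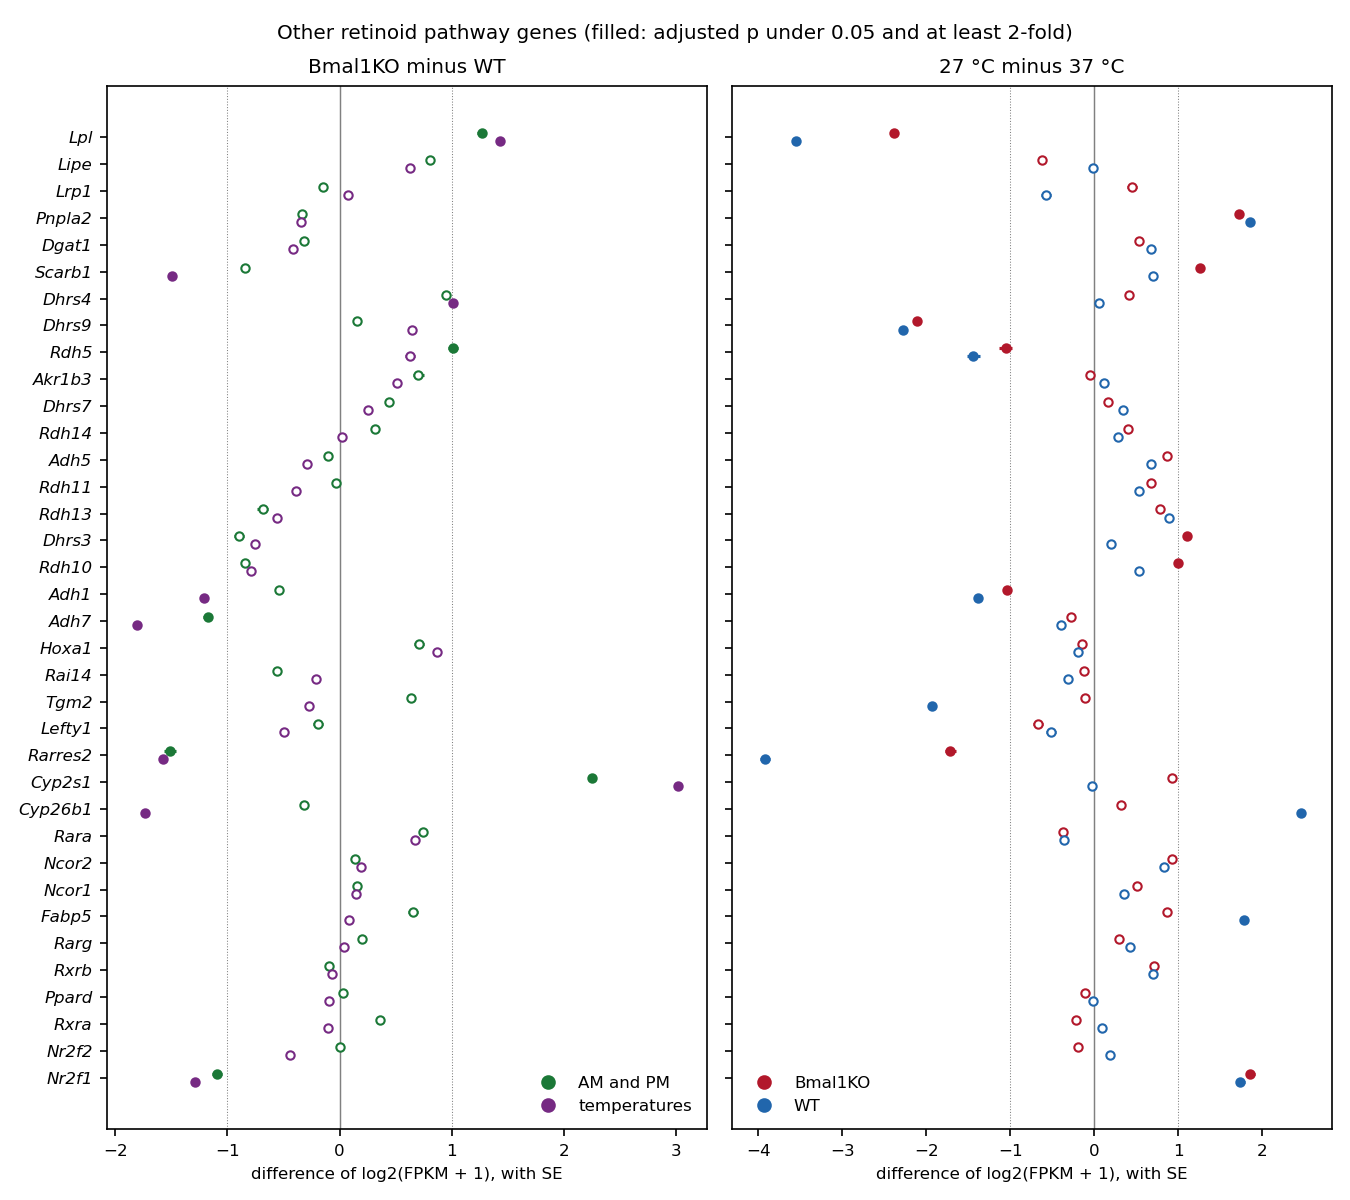
Differences of log2(FPKM + 1) with standard errors for tested genes of the retinoid pathway outside the 9, Bmal1KO minus WT on the left (green in AM and PM, purple over the temperatures) and 27 minus 37 °C on the right (Bmal1KO in red, WT in blue), filled where the adjusted p was under 0.05 and the difference at least 2-fold. Cyp2s1 and Lpl lie to the right of the zero line in the genotype panel, and WT Cyp26b1 lies at 2.46 in the temperature panel.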

How the data were processed

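The authors deposited 1 table of gene-level FPKM for 212 libraries, per the file headers. Per the labels' protocols, poly(A) RNA was selected, stranded libraries were made, and they were read from a single end at 101 bases. The submitters' processing notes name TopHat, TopHat2 2.1.0, Cuffdiff and the build GRCm38; their settings, and how libraries were scaled to each other, are not named there. Symbols came from GENCODE for the same build (47217 of 47631 IDs matched).

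Each FPKM was taken as log2(FPKM + 1), and genes averaging 1 FPKM or more were fitted with limma 3.58.1 in R 4.3.3 (lmFit and eBayes with an intensity trend; intercept, linear time, 24 h cosine and sine for each course), once over 68 AM and PM libraries and once over 142 temperature libraries. Contrasts were two-sided and adjusted by the Benjamini-Hochberg method over all genes tested. Calls of level needed an adjusted p under 0.05 and a 2-fold difference, and for genotype the same sign in each condition; rhythm and trend needed the adjusted p. The fits were tested on simulated data. The 9 genes, the pathway and marker lists and the tests were chosen with earlier results of these data known. Named are the 9 genes, up to 4 called genes per pathway list and comparison, and the 3 genes most correlated with each of the 9 that had a mean of at least 1 FPKM; Rdh10, Rara and Rarg were named after their values were seen. Of the called pathway genes, 1 is counted but not reported here.

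Depth was estimated from the FPKM worth 1 read, using 1350 genes, whose low values came to whole reads, to within 0.15, in 95.4% of cases. Since depth is an estimate, no counting intervals are given. Sequences are RefSeq (GRCm38.p6). The alternatives were a pseudocount of 0.1 FPKM, median-of-ratios scaling, no filter on low values, no intensity trend, a block for the time label, no linear term, the linear term alone, the pair labelled CT14 kept, and leaving out the WT AM library at CT36; fitting each course alone was added after seeing the data.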

Additional observations from a re-analysis of the deposited data

Results flagged for a closer look

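Aldh1a7 changed in opposite directions with temperature in the genotypes. The differences of mean log2(FPKM + 1) from 37 °C were -1.63 in Bmal1KO and 2.55 in WT at 27 °C, and -0.80 in Bmal1KO and 2.38 in WT at 32 °C. No library of one temperature overlapped those of the other in these 4 pairs, and the difference between the genotypes was not tested.

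The drift over time differed between the genotypes in 2 cases by the test of the difference. The slope of Aldh1a1 at 32 °C, Bmal1KO minus WT, differed by -0.30 log2 per 24 h, and that of Crabp2 at 27 °C by 0.38. For Crabp2 the Bmal1KO level was about 1 FPKM, where the pseudocount compresses slopes, so its genotypes are not on a like scale.

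Both CT14 libraries at 27 °C, which entered no comparison, held values of the opposite genotype for these genes. The library labelled Bmal1KO had 168 FPKM of Crabp1, 12.2 FPKM of Rarb and 0.287 FPKM of Rbp4, and the library labelled WT had 0.657 FPKM of Crabp1, 0.572 FPKM of Rarb and 16.9 FPKM of Rbp4.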

How the results depend on the processing

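The count of rhythm calls among the 36 combinations was 0 with a pseudocount of 0.1 FPKM, 1 (Rbp4) each with no filter on low values, with the CT14 pair kept and with no linear time term, and 1 with each course fitted alone, which was Aldh1a1 in place of both; fitting each course alone gave 2277 rhythm calls over all genes, against 5721. Trend calls numbered 16 with the CT14 pair kept, against 27. Keeping that pair turned the 27 °C slopes of Crabp2 to -0.38 in Bmal1KO and 0.35 in WT and of Rarb in WT to 0.28, and WT Crabp1 at 27 °C, 32 °C and 37 °C no longer passed (adjusted p = 0.242, 0.13 and 0.0779). With the linear term alone, the slope of Aldh1a7 in Bmal1KO PM was 0.035. With a pseudocount of 0.1 FPKM, PM against AM called 311 genes in Bmal1KO and 541 in WT, 3 of the 9 genes were 2-fold apart between 27 and 37 °C in Bmal1KO, and 2 pathway genes were higher at 32 °C in Bmal1KO. Median-of-ratios scaling left 3 pathway genes higher at 27 °C in Bmal1KO and 1 higher at 32 °C in WT. The cause was not tested. A replicate block for the time label, run for PM against AM and the pathway counts, kept those within 1.5 times, with 154 PM against AM calls in Bmal1KO and 313 in WT; Aldh1a7 in Bmal1KO then differed by 0.82. The sizes of level differences against courses under 1 FPKM moved with the pseudocount. Depth limits what can be said of Aldh1a2, Aldh1a3 and Stra6.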
